A study of Mus musculus with 11 samples.

Results

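A set of 9 genes was followed, named by symbol, with no threshold on their values: the mitophagy receptor genes Bnip3, Bnip3l (which encodes NIX), Fundc1, Phb2 and Bcl2l13, the mitophagy kinase gene Pink1, and Fam162a, Higd1a and Higd2a, which encode mitochondrial proteins linked to hypoxia. All 9 were found among 48709 gene IDs and all 9 had enough counts to be tested, among 16235 genes tested. RNA was sequenced from primary mouse hippocampal neurons, cells dissociated from the hippocampus and kept for 10 days at 20% oxygen. The hypoxia group (5 libraries) was then held at 1% oxygen for 4 h, and the control group (6 libraries) came from the same isolation and stayed at 20% oxygen. No group carried a genetic change, and the sources used here do not name strain, sex or age of the mice. Polyadenylated RNA was read as single-end reads of 50 bp with a kit that does not mark the strand. The labels do not say that libraries of a group came from separate cultures, so p-values measure the spread between these libraries, which may be technical.

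Mitophagy is the removal of mitochondria by autophagy. In one route, receptors that sit in mitochondrial membranes bind ATG8-family proteins such as LC3 on the forming autophagosome; in the other, the kinase PINK1 builds up on damaged mitochondria and starts their tagging with ubiquitin, and adaptors that bind ubiquitin link the organelle to LC3. The genes of BNIP3 and NIX are known targets of the hypoxia-inducible transcription factor HIF, whereas FUNDC1 is a receptor known to be switched on in hypoxia mainly through loss of inhibitory phosphorylation. HIF binds DNA at hypoxia response elements, whose core is ACGTG or, less strictly, GCGTG.

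The proximal promoters of 4 members are shown because their letters differ in this core. They are from RefSeq (GRCm38.p6), 250 bases before to 50 bases after the annotated start, read 5′ to 3′ on the strand of the gene. Capitals mark each ACGTG or GCGTG on either strand (on the opposite strand they read CACGT and CACGC), and neighbouring or overlapping matches run together. The windows are at chr7:138909457-138909756 on the minus strand for Bnip3, chr16:36071512-36071811 on the minus strand for Fam162a, chr9:121857747-121858046 on the minus strand for Higd1a and chr13:54589981-54590280 on the plus strand for Higd2a.
Bnip3: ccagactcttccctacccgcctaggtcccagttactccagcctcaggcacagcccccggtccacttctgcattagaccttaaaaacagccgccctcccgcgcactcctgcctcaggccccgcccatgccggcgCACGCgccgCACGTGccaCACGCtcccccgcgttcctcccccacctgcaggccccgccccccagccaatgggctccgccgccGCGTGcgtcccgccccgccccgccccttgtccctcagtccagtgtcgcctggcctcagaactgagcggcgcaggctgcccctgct
Fam162a: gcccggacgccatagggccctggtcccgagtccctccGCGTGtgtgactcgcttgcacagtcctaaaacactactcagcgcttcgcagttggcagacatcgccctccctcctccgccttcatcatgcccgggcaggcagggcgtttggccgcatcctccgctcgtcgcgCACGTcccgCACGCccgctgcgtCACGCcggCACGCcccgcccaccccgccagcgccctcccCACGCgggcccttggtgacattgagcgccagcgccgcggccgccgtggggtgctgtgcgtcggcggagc
Higd1a: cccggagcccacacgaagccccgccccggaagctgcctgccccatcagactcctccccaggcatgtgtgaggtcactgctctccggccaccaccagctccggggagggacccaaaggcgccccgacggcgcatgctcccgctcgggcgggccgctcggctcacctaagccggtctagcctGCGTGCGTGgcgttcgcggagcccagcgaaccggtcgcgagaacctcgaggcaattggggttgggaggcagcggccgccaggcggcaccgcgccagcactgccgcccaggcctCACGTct
Higd2a: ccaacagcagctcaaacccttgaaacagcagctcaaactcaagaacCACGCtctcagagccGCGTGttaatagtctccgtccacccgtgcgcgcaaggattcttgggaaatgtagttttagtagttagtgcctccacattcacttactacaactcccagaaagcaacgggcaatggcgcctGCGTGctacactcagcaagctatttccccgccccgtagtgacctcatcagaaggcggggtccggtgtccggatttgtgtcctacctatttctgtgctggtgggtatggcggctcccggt

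ACGTG was found in 4 of the 8 members with a promoter in the RefSeq table, Bnip3, Fam162a, Higd1a and Phb2, whereas 19.6% of 32851 mouse promoters of the same length held it. ACGTG or GCGTG was found in 7 of 8, against 43.8% of all promoters. The Bnip3 window held the palindrome CACGTG beginning 108 bases before the start, which counts once on each strand, plus 3 matches to GCGTG. Fam162a held 1 match to ACGTG, 81 bases before the start, and 5 to GCGTG, 4 of them within 72 bases of the start. In Higd1a a pair of GCGTG matches overlapped at 70 and 66 bases before the start, and ACGTG began 44 bases after it. Higd2a, the paralogue of Higd1a, had 3 matches to GCGTG and none to ACGTG. Pink1 and Bcl2l13 had 1 GCGTG each, and Phb2 had 1 ACGTG. The Fundc1 window had no match, but the RefSeq start used there lies 318 bases downstream of the outermost GENCODE start, and that of Higd1a lies 566 bases downstream, so those windows do not cover every start of these genes. Each core contains a CG pair, and the windows differed in base composition, from 72.7% G and C in Higd1a to 54.3% in Higd2a. CG pairs ran from 39 in Fam162a, which had the most matches, to 12 in Fundc1, which had none. Between them, Higd1a had 33 CG pairs with 3 matches, Phb2 had 29 with 1 and Bnip3 had 27 with 5. Bcl2l13 had 26 CG pairs with 1 match, Pink1 had 18 with 1 and Higd2a had 17 with 3. The part of base composition in the number of matches was not tested. These matches describe letters, and no binding was measured.

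**Figure D1:**
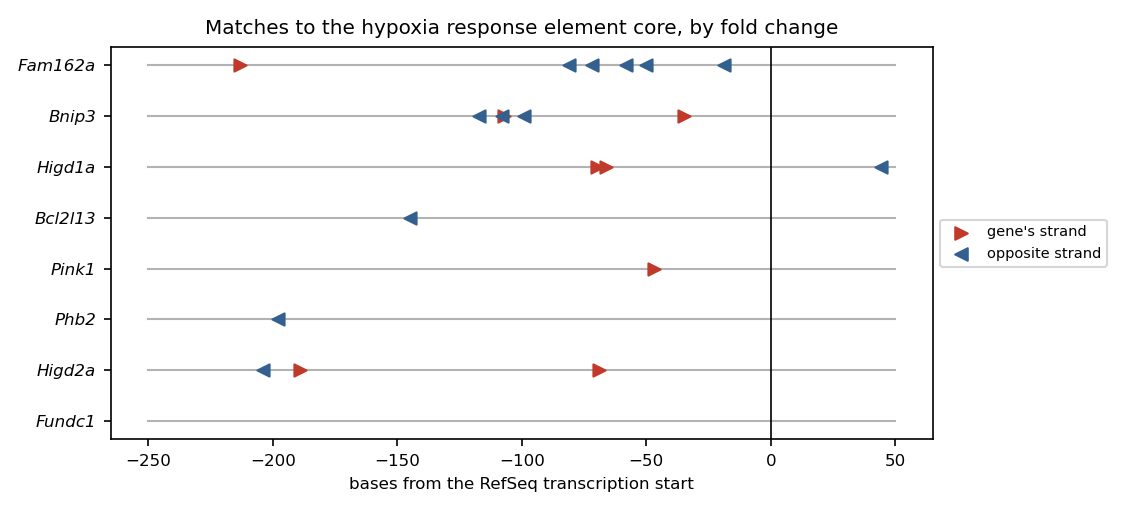
Positions of ACGTG and GCGTG in the promoter windows of 8 members, in bases from the RefSeq transcription start, ordered from the highest fold change at the top to the lowest at the bottom. Arrowheads give the first base and the strand of each match; Fam162a has 6, Bnip3 has 5 and Fundc1 has none.

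Total counts per library ran from 16619493 to 31917157, with a mean of 26300000 ± 3440000 in hypoxia and 27100000 ± 5410000 in control (SD, n = 5 and 6; exact permutation p = 0.801, 2-sided). The cultures carried the RNA of neurons: 8 neuronal markers summed to 6535 to 7042 counts scaled to 1000000 (CPM) in hypoxia and 6412 to 7084 CPM in control, and none of the 8 was called. Astrocyte markers were also present, at a summed 1418 to 1550 CPM in hypoxia and 1435 to 1643 CPM in control. Aqp4 was lower and the other 5 were not called, and 3 of the 6 had log2 fold changes above 0 (median -0.055). Markers of the oligodendrocyte lineage summed to 87.0 to 118 CPM in hypoxia and 104 to 150 CPM in control. Olig1 and Olig2 were lower and the other 4 were not called, and 1 of the 6 had a log2 fold change above 0 (median -0.27). Markers of endothelial and mural cells summed to 22.7 to 33.1 CPM in hypoxia and 17.3 to 21.6 CPM in control. Most of that last sum was Pdgfrb, the only marker of its list called (21.4 CPM in hypoxia, 14.5 CPM in control, higher), and 2 of the 4 tested markers had log2 fold changes above 0, with a median of 0.05. Microglial markers stayed between 14.5 and 17.5 CPM and fibroblast markers between 154 and 313 CPM, with no marker called. No marker list was at 0, although P2ry12 and Cldn5 were too low to test. In such bulk samples fewer cells of a type and less RNA per cell cannot be told apart, and the part of these marker values in the members' values was not tested.

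Of the 9 members, Fam162a, Higd1a and Bcl2l13 were higher in hypoxia, Fundc1 was lower, and Bnip3, Bnip3l, Higd2a, Pink1 and Phb2 were not called (edgeR quasi-likelihood test, Benjamini-Hochberg adjusted p under 0.05 over all genes tested). The background was 10.1% of genes called higher, 12.8% called lower and 22.9% called in either direction. Against that background 4 of 9 members were called, and nothing particular to these genes was read from the count. Their median log2 fold change was 0.10, beside -0.02 over all genes tested. In 3 members, Fam162a, Bcl2l13 and Fundc1, the groups did not overlap; of all genes tested, 6.72% had every hypoxia library above every control library and 7.26% had every one below.

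**Figure D2:**
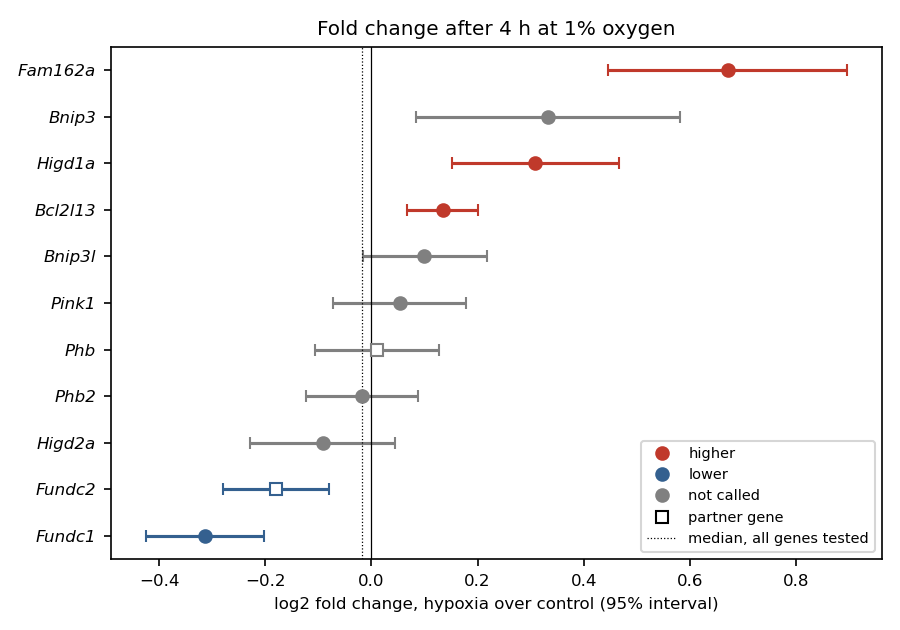
log2 fold change of hypoxia over control for the 9 members (circles) and the partner genes Fundc2 and Phb (squares), with 95% intervals from the edgeR fit. Fam162a lies furthest to the right at 0.67 and Fundc1 furthest to the left at -0.31; the interval of Bnip3 lies above 0 although its adjusted p missed the threshold.

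BNIP3 and NIX, related proteins of the outer mitochondrial membrane that bind LC3, are the receptors best known as HIF targets. Bnip3 (ENSMUSG00000078566, chr7:138890836-138909519, minus strand, mm10) had 32.2, 44.0, 37.2, 37.9 and 52.1 CPM in the 5 hypoxia libraries, against a lowest value of 27.2, a median of 30.5 and a highest value of 42.8 CPM in the 6 control libraries. Only 2 hypoxia libraries lay above every control library, and control 2, at 42.8 CPM, stood well above the next control library at 33.9 CPM. The means were 40.7 ± 7.64 CPM in hypoxia and 32.4 ± 5.56 CPM in control (SD, n = 5 and 6), a log2 fold change of 0.33 (SE 0.12, 95% interval 0.08 to 0.58) with an edgeR adjusted p of 0.0517, just short of the threshold.

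The call on Bnip3 turned on settings and on single libraries. The adjusted p was 0.0438 in edgeR with RLE factors and 0.0929 in DESeq2, and it was 0.00725 without control 2 (log2 fold change 0.43) and 0.0221 without hypoxia 1 (0.40). Without hypoxia 5, the library with the highest Bnip3 level, the log2 fold change was 0.23 and the adjusted p was 0.147. The log2 fold change stayed above 0 under all 18 alternatives, between 0.23 and 0.43. Reads of Bnip3 can also be shared: 47.2% of its 50-base windows occur in another annotated transcript, among them pseudogenes and an antisense gene. The pseudogene rows held few counts, and adding them to Bnip3, an alternative chosen after seeing the data, gave an adjusted p of 0.0513. Counts that small could hardly move the value, so this does not show whether shared reads of Bnip3 were lost or assigned elsewhere. Among the 6 genes that share windows with Bnip3, AC160336.1 and Gm6532 had no row of counts and could not be added.

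Bnip3l (ENSMUSG00000022051, chr14:66985239-67008877, minus strand) was the more abundant of the pair in CPM. It had 82.3, 100, 101, 104 and 102 CPM in hypoxia, against a lowest value of 84.5, a median of 91.0 and a highest value of 98.2 CPM in control. Thus 4 hypoxia libraries lay above every control library and hypoxia 1 lay below all of them. The log2 fold change was 0.10 (SE 0.06, 95% interval -0.02 to 0.22) and the edgeR adjusted p was 0.211. Without hypoxia 1 the log2 fold change was 0.16 with an edgeR adjusted p of 0.0166, so that the lack of a call rests on 1 library. Of the 50-base windows of Bnip3l, 20.8% also occur in its pseudogene Bnip3l-ps. The log2 ratio of Bnip3l to Bnip3 was 1.28 ± 0.21 in hypoxia and 1.51 ± 0.18 in control (SD, n = 5 and 6), a difference of -0.23 that did not pass an exact permutation test (2-sided p = 0.0887, adjusted 0.118 over 4 ratios; the smallest p the design allows is 0.00216). A difference between the responses of these receptors was therefore not shown.

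FUNDC1 is a receptor of the outer membrane that binds LC3 when mitochondria lack oxygen. Its gene (ENSMUSG00000025040, chrX:17556564-17572325, minus strand) had 16.8, 17.7, 18.8, 20.1 and 18.5 CPM in hypoxia, against a lowest value of 21.6, a median of 23.1 and a highest value of 23.9 CPM in control. Every hypoxia library was below every control library. Fundc1 fell to 18.4 ± 1.25 CPM in hypoxia, against 22.9 ± 0.84 CPM in control, a log2 fold change of -0.31 (SE 0.05, 95% interval -0.43 to -0.20, edgeR adjusted p = 0.000463). This was the only decrease called among the members, and it held under all 18 alternatives. None of the 50-base windows of Fundc1 occurs in a transcript of a gene outside the members, Fundc2 and Phb. Sharing of windows with Fundc2 was not searched.

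Fundc2, the paralogue of Fundc1, was lower too, at 34.7 ± 2.25 CPM in hypoxia and 39.4 ± 1.53 CPM in control (log2 fold change -0.18, SE 0.05, edgeR adjusted p = 0.0122), with 4 of 5 hypoxia libraries below all control libraries. The log2 ratio of Fundc1 to Fundc2 was -0.92 ± 0.07 in hypoxia and -0.78 ± 0.10 in control. The difference of -0.13 had an exact permutation p of 0.0346 and did not pass after adjustment over the 4 ratios (0.0692); without control 5 it was -0.16 with an adjusted p of 0.0318. A larger decrease of Fundc1 than of Fundc2 was thus not established.

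FAM162A, also called HGTD-P, is a mitochondrial protein known as a HIF target that promotes cell death. Fam162a (ENSMUSG00000003955, chr16:36043761-36071594, minus strand) showed the largest fold change of the 9 members. It had 63.5, 80.6, 58.4, 62.4 and 83.6 CPM in hypoxia, against a lowest value of 38.9, a median of 40.7 and a highest value of 57.0 CPM in control. All 5 hypoxia libraries were above all control libraries, although hypoxia 3, at 58.4 CPM, lay close to control 2, at 57.0 CPM. Fam162a rose to 69.7 ± 11.5 CPM in hypoxia, against 43.8 ± 6.998 CPM in control, which is 1.59-fold (log2 fold change 0.67, SE 0.11, 95% interval 0.45 to 0.90, edgeR adjusted p = 0.00029). On the opposite strand it overlaps Wdr5b, and 13.3% of its 50-base windows lie in another transcript. Wdr5b itself had 5.60 CPM in hypoxia and 5.86 CPM in control (log2 fold change -0.05, edgeR adjusted p = 0.784).

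HIGD1A and HIGD2A are related proteins of the inner mitochondrial membrane. HIGD1A is known to be induced by hypoxia and to modulate the respiratory chain, and HIGD2A is known to act in the assembly of cytochrome c oxidase. Higd1a (ENSMUSG00000038412, chr9:121848563-121858362, minus strand) had 105, 122, 109, 113 and 142 CPM in hypoxia, against a lowest value of 85.2, a median of 94.4 and a highest value of 110 CPM in control. In hypoxia 3 libraries lay above every control library; the remaining overlap came from control 2 alone, since the next control library had 98.6 CPM. Higd1a rose to 118 ± 14.7 CPM in hypoxia, against 95.3 ± 8.71 CPM in control (log2 fold change 0.31, SE 0.07, 95% interval 0.15 to 0.47, edgeR adjusted p = 0.00672). Of its 50-base windows, 24.4% occur in another annotated transcript, among them a predicted gene on the opposite strand.

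Higd2a (ENSMUSG00000025868, chr13:54590207-54591158, plus strand) gave no call. It had 53.0, 48.8, 46.9, 53.8 and 56.6 CPM in hypoxia, against a lowest value of 47.9, a median of 56.6 and a highest value of 62.0 CPM in control, and the groups overlapped widely. The log2 fold change was -0.09 (SE 0.07, 95% interval -0.23 to 0.05, edgeR adjusted p = 0.339). Set against each other within a library, the log2 ratio of Higd1a to Higd2a was 1.18 ± 0.15 in hypoxia and 0.79 ± 0.22 in control. The difference of 0.39 had an exact permutation p of 0.0152, but 0.0608 after adjustment over the 4 ratios, with 3 of 5 hypoxia libraries above all control libraries. The adjusted p was 0.0318 without control 2 and 0.0476 without control 5, so the lack of a call depends on single control libraries.

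BCL2L13 is a protein of the outer membrane and the mammalian counterpart of the yeast mitophagy receptor Atg32. Bcl2l13 (ENSMUSG00000009112, chr6:120836212-120892842, plus strand) had 77.1, 80.3, 79.9, 80.9 and 80.7 CPM in hypoxia, against a lowest value of 70.9, a median of 72.8 and a highest value of 73.7 CPM in control. The shift was small, but the libraries of each group lay so close together that no hypoxia library reached down to the control range. Bcl2l13 rose to 79.8 ± 1.54 CPM in hypoxia, against 72.7 ± 1.06 CPM in control, 1.10-fold (log2 fold change 0.13, SE 0.03, 95% interval 0.07 to 0.20, edgeR adjusted p = 0.00567). Its exons overlap 628 bases of Bid on the opposite strand, whose reads cannot be told apart there. Bid had 33.7 CPM in hypoxia and 30.8 CPM in control (log2 fold change 0.13, edgeR adjusted p = 0.0721), and its part in the value of Bcl2l13 was not tested. Of the 50-base windows of Bcl2l13, 7.1% occur in transcripts of other genes, 375 in all, Bid among them.

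PINK1, the kinase that marks damaged mitochondria, is controlled mainly by turnover of the protein. Pink1 (ENSMUSG00000028756, chr4:138313409-138326307, minus strand) had 85.5, 85.1, 80.0, 80.5 and 92.9 CPM in hypoxia, against a lowest value of 71.0, a median of 82.4 and a highest value of 91.0 CPM in control. The hypoxia values fell largely inside the control range, and the log2 fold change of 0.05 was not called (SE 0.06, 95% interval -0.07 to 0.18, edgeR adjusted p = 0.572). PHB2, a prohibitin of the inner membrane, binds LC3 once the outer membrane has ruptured. Phb2 (ENSMUSG00000004264, chr6:124712336-124716950, plus strand) had 64.0, 59.9, 65.1, 63.9 and 68.1 CPM in hypoxia, against a lowest value of 58.2, a median of 66.1 and a highest value of 69.5 CPM in control. All hypoxia values of Phb2 lay within the control range (log2 fold change -0.02, 95% interval -0.12 to 0.09, edgeR adjusted p = 0.837). Its partner Phb, which forms the same ring-shaped complex, had 25.5 ± 1.78 CPM in hypoxia and 25.4 ± 1.46 CPM in control (log2 fold change 0.01, edgeR adjusted p = 0.922). The log2 ratio of Phb2 to Phb was 1.33 ± 0.09 in hypoxia and 1.35 ± 0.13 in control (difference -0.02, exact permutation p = 0.764, 0.764 adjusted).

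**Figure D3:**
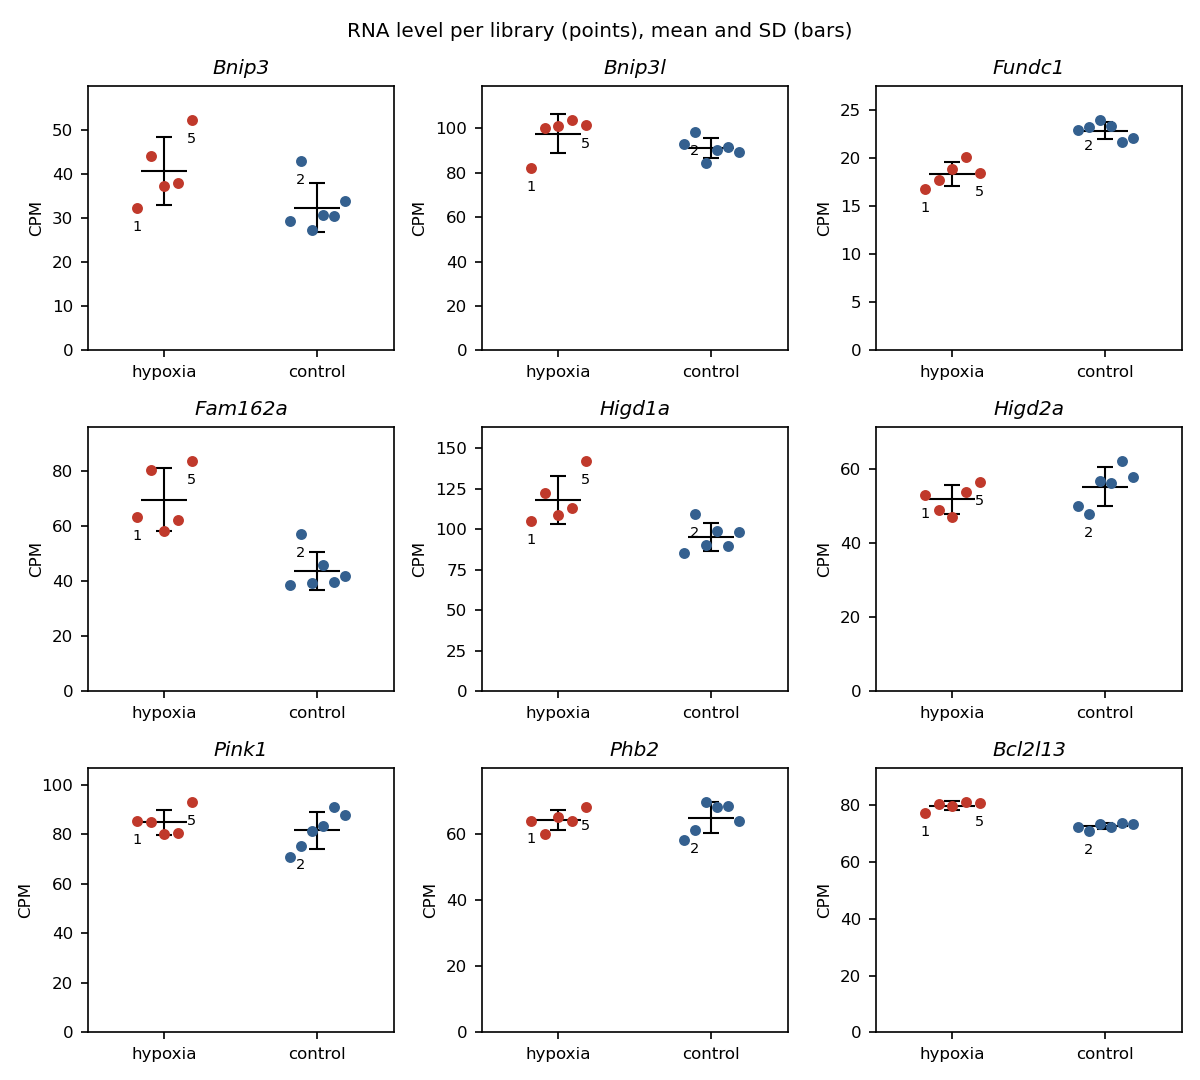
Level of each member in CPM (counts scaled by TMM library size) in the 5 hypoxia libraries (red) and the 6 control libraries (blue), with the mean and the SD as bars; each axis starts at 0. The digits under points mark hypoxia 1, hypoxia 5 and control 2. The groups are apart for Fundc1, Fam162a and Bcl2l13, and control 2 is the highest control library for Bnip3, Bnip3l, Fam162a and Higd1a.

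Levels can be compared between genes only per length, here as CPM per kb of annotated exon, a scale that understates genes whose annotated exons are not all used. In hypoxia Fam162a, at 82.0 ± 13.6 CPM per kb, and Higd2a, at 79.9 ± 6.01, stood highest and were within their spread of each other, whereas in control Higd2a had 85.1 ± 8.06 and Fam162a 51.5 ± 8.23, well apart. Next came Higd1a, with 38.8 ± 4.83 CPM per kb in hypoxia and 31.4 ± 2.87 in control, and Pink1, with 31.7 ± 1.94 in hypoxia and 30.5 ± 2.80 in control, which were within their spread in control only. Bnip3l had 25.3 ± 2.26 CPM per kb in hypoxia and 23.6 ± 1.16 in control. It was followed by Bnip3, with 17.97 ± 3.37 in hypoxia and 14.3 ± 2.45 in control, and Phb2, with 17.3 ± 0.79 in hypoxia and 17.5 ± 1.23 in control, which did not differ beyond their spread. Bcl2l13 and Fundc1 were lowest and changed places: Bcl2l13 had 8.78 ± 0.17 CPM per kb in hypoxia and 7.998 ± 0.12 in control, and Fundc1 had 7.81 ± 0.53 in hypoxia and 9.71 ± 0.36 in control.

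Within each group, Bnip3, Fam162a and Higd1a moved together from library to library. After each library's group mean was taken off, the log2 CPM of Bnip3 and Higd1a gave a Pearson r of 0.93 and a Spearman rho of 0.91 over the 11 libraries, and those of Fam162a and Higd1a gave 0.90 and 0.81. For Bnip3 and Fam162a these were 0.87 and 0.79, and for Higd2a and Pink1 they were 0.84 and 0.83. These were the 4 of 36 pairs whose Pearson r passed adjustment over the pairs (permutation within groups, adjusted p = 0.0099, 0.0099, 0.0423 and 0.0423), and by Spearman's rho only Bnip3 with Higd1a did (0.036, and 0.0729 for the rest). The r was also taken without the 2 libraries in which the first-named gene of the pair lay farthest from its median deviation. It was then 0.79 for Bnip3 and Higd1a, 0.78 for Fam162a and Higd1a, 0.63 for Bnip3 and Fam162a, and 0.83 for Higd2a and Pink1. The values share library preparation and scaling, and whether the libraries are independent cultures is not stated. An axis of spread over all genes tested (principal component 2, 18.2% of the variance) also separated libraries within groups. On it control 1 lay at 25.18, control 5 at -20.13 and hypoxia 5 at -20.71. Control 1 had the lowest total count (16619493) and hypoxia 5 the highest (31917157), whereas control 4, with 31416241, lay at -6.49. The part of depth in this axis was not tested. Pink1 was lowest among controls in control 1, and Higd2a in control 2. Both genes were highest in control 5 and in hypoxia 5 within their groups. The part of this axis in the correlations was not tested.

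Control 2 and hypoxia 5 lay farthest out in the pairs among Bnip3, Fam162a and Higd1a. Above the control mean on the log2 scale, control 2 was 0.42 higher for Bnip3, 0.40 for Fam162a and 0.21 for Higd1a. Hypoxia 5 was 0.38 above the hypoxia mean for Bnip3, 0.28 for Fam162a and 0.27 for Higd1a. Other HIF targets were high in control 2 and less so in hypoxia 5. Control 2 was the highest control library for 12 of 14 HIF target genes outside mitochondria (85.7%), against 15.9% of all genes tested, and hypoxia 5 was the highest hypoxia library for 8 of 14 (57.1%), against 26.9%. The median deviation of these 14 genes from their group mean on the log2 scale was 0.07 in hypoxia 5 and 0.33 in control 2. It was -0.34 in control 3 and -0.23 in control 1, so the control libraries were spread in both directions. Hypoxia 5 was also the highest hypoxia library for Higd2a, Pink1 and Phb2, whereas control 2 lay below the control mean for all 3 of them and was the lowest control library for Higd2a. What set control 2 apart, and what spread the other control libraries, was not tested.

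**Figure D4:**
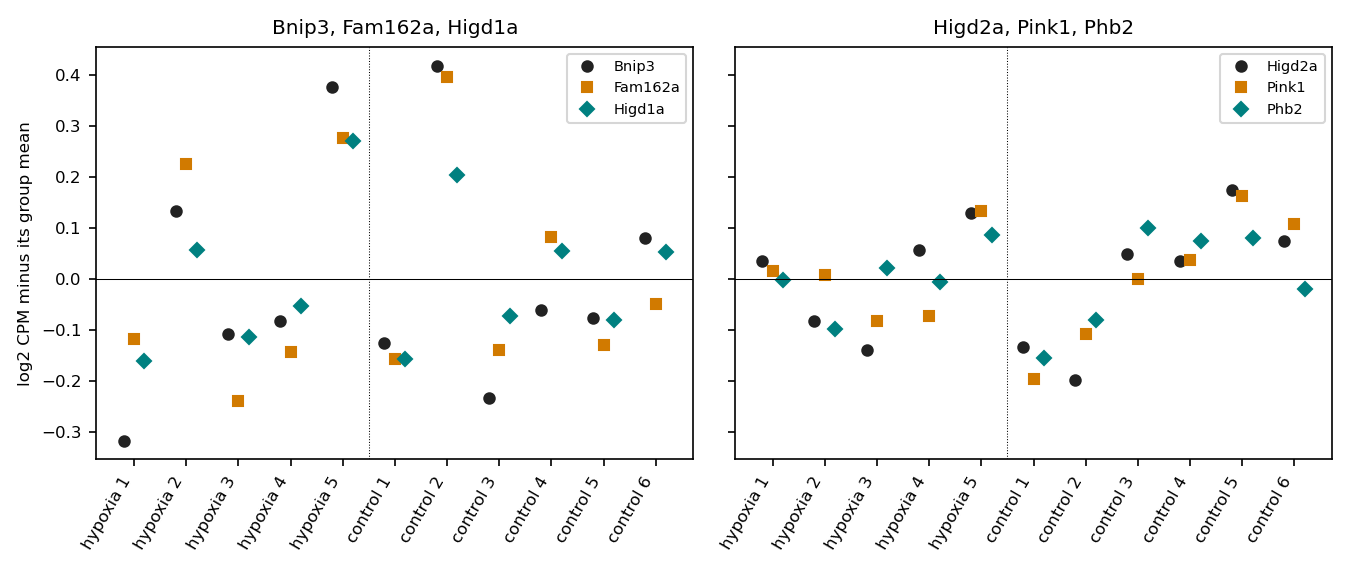
Deviation of each library from its group mean, in log2 CPM, for Bnip3, Fam162a and Higd1a (left) and for Higd2a, Pink1 and Phb2 (right), hypoxia libraries left of the dotted line and control libraries right of it. On the left all 3 genes are highest in hypoxia 5 among hypoxia libraries and in control 2 among control libraries; on the right control 2 lies below 0 for all 3.

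The genes whose pattern was most like that of each called member were named by their Pearson r of log2 CPM over the 11 libraries among 11059 genes, a measure that includes the difference between the groups. They are given as a description, with the r within groups in the same sentence. For Fam162a these were Gbe1, the glycogen branching enzyme gene (r 0.98, 0.91 within groups), Pdk1, whose kinase inhibits pyruvate dehydrogenase (0.97, 0.90), and Mthfd1l of mitochondrial one-carbon metabolism (0.97, 0.91). For Higd1a they were Ldha (0.97, 0.94) and Pgk1 (0.96, 0.92), both of glycolysis, and Ndrg1 (0.96, 0.95), and whether reads of Pgk1 are shared with pseudogenes was not examined. Fundc1 was most like Setd7, a lysine methyltransferase gene (0.98, 0.92), the mitochondrially encoded complex I subunit gene mt-Nd5 (0.97, 0.84) and Mier3 (0.97, 0.84), which had log2 fold changes of -0.19, -0.53 and -0.41. Bcl2l13 was most like Wipf2 (0.98, 0.82), Zfpm2 (0.98, 0.81) and Tars, the threonyl-tRNA synthetase gene (0.98, 0.84).

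The other genes of mitophagy were described by lists, each read against 10.1% of genes called higher and 12.8% called lower. Of 17 genes of the PINK1 arm reported, 1 was higher and none was lower, and the median log2 fold change was 0.04. The higher gene was Tomm7, which encodes a small subunit of the outer membrane import complex that helps to hold PINK1 there. Tomm7 had 43.4 ± 3.26 CPM in hypoxia and 38.2 ± 1.39 CPM in control (log2 fold change 0.18, SE 0.05, edgeR adjusted p = 0.0147), and the groups did not overlap. Its neighbours in the import complex, Tomm20, Tomm22, Tomm40 and Tomm70a, were not called, with log2 fold changes between -0.03 and 0.05.

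Among cargo adaptors and ATG8 proteins, 3 of 11 were higher and 1 was lower (median 0.09). The higher genes encode the adaptors Tollip (log2 fold change 0.14, edgeR adjusted p = 0.004), Tax1bp1 (0.14, 0.0174) and Optn (0.13, 0.0242, named after its value was seen), which bind ubiquitin on cargo, and the lower one encodes the adaptor Nbr1 (-0.09, 0.0441). No gene of the ATG8 family itself was called: Map1lc3a, Map1lc3b, Gabarap, Gabarapl1 and Gabarapl2 had log2 fold changes between -0.02 and 0.09.

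Of 14 other receptors and regulators of BNIP3, NIX and FUNDC1, 2 were higher and 3 were lower (median 0.04). Foxo3, a transcription factor gene known to act on Bnip3 in muscle, rose to 69.4 ± 3.19 CPM in hypoxia, against 47.7 ± 4.52 CPM in control (log2 fold change 0.54, SE 0.06, edgeR adjusted p = 8.19e-06), and the groups did not overlap. Ambra1, an autophagy regulator that can act as a mitophagy receptor, was higher by 0.16 (edgeR adjusted p = 0.00589). Pptc7, a mitochondrial phosphatase known to promote the turnover of BNIP3 and NIX, was at 24.7 ± 1.31 CPM in hypoxia and 29.2 ± 1.66 CPM in control (-0.24, edgeR adjusted p = 0.00308); 1002 of its 4719 exonic bases overlap Rad9b, which was not called (adjusted p = 0.794). Besides Fundc2 (above) and Pptc7, Nipsnap2 was lower (-0.12, edgeR adjusted p = 0.0345; named after its value was seen).

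In mitochondrial fission and fusion, 1 of 10 genes was higher and 1 was lower (median 0.04), and both encode Miro GTPases, which tie mitochondria to motor proteins. Rhot1 had 108 ± 4.01 CPM in hypoxia and 98.3 ± 5.11 CPM in control (log2 fold change 0.14, edgeR adjusted p = 0.0197). Rhot2 had 15.9 ± 1.86 CPM in hypoxia and 19.6 ± 1.16 CPM in control (-0.31, edgeR adjusted p = 0.00586), but 1307 of its 4442 exonic bases overlap a predicted gene on the same strand and 81 overlap Wdr90, itself lower (-0.36, edgeR adjusted p = 0.00475), so its value is uncertain. Among the other mitochondrial proteins known from hypoxia, 3 of the 10 tested (of 13 listed) were higher. Hexokinase 2, which docks on the outer membrane, stood out: Hk2 had 86.7 ± 10.3 CPM in hypoxia and 25.4 ± 10.99 CPM in control (1.76, SE 0.22, edgeR adjusted p = 3.88e-05). Pdk1 had 163 ± 14.4 CPM in hypoxia and 117 ± 16.3 CPM in control (0.48, edgeR adjusted p = 0.000506), and Hk1 was higher by 0.18 (adjusted p = 0.022, named after its value was seen).

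Set beside the members, all 14 HIF targets outside mitochondria were higher, against 10.1% of all genes tested, and their median log2 fold change was 1.08. In 13 of them every hypoxia library lay above every control library, against 6.72% of all genes tested. The smallest p-values belonged to the genes of the histone demethylase Kdm3a (log2 fold change 1.32, edgeR adjusted p = 4.89e-08) and the repressor Bhlhe40 (1.35, 7.98e-08). The changes of the members were smaller in size than that median, from -0.31 to 0.67. Single HIF targets ran from 0.39 (Ldha) to 2.06 (Adm), a range that takes in Fam162a. These lists were written with results of these data known, and their counts are not independent evidence.

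**Figure D5:**
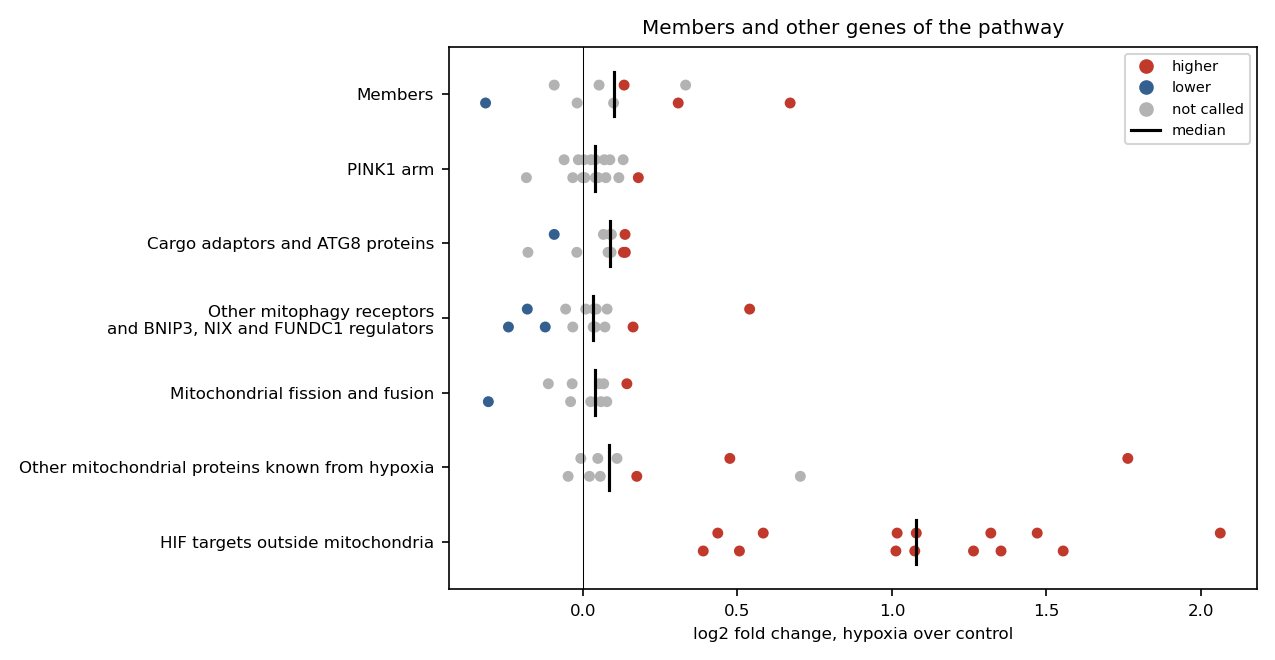
log2 fold change of hypoxia over control for each tested gene of the 9 members and of 6 lists, red where called higher, blue where called lower and grey where not called, with the list's median as a black line. All 14 HIF targets lie to the right of 0, whereas the medians of the mitophagy lists lie between 0.04 and 0.09.

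The authors' deposited table of genes that passed their own comparison lists 4 of the 9 members and Fundc2. In the authors' deposited table the log2 fold changes are 0.70 for Fam162a, 0.34 for Higd1a, 0.15 for Bcl2l13, -0.30 for Fundc1 and -0.16 for Fundc2, and the adjusted p-values are 4.19e-06, 4.13e-06, 0.000240, 2.55e-05 and 0.0134. The direction is the same as in the edgeR fit for all 5 genes. Bnip3, Bnip3l, Higd2a, Pink1 and Phb2 are not in the authors' deposited table.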

How the data were processed

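The authors deposited a table for each library with whole-number, unnormalized counts of reads by Ensembl gene. Per the submitters' processing notes, reads were handled with STAR 2.5.2b, featureCounts of Subread 1.5.1, FastQC 0.11.5 and DESeq2 on mm10; which annotation release and strand setting were used, and how reads with several matches were counted, is not given in the sources used here. The authors also deposited tables of their comparison with log2 fold changes and adjusted p-values, per the file headers; the 11 normalized columns for libraries in each were not used. Symbols and exons came from GENCODE M21 and promoters from RefSeq. A 50-base window was counted as shared where an annotated transcript of another gene holds it on either strand. Sharing among the members, Fundc2 and Phb was not searched.

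Counts were analysed with edgeR 4.0.16 (R 4.3.3): filterByExpr by group, TMM, glmQLFit without robust fitting and glmQLFTest, 2-sided, with Benjamini-Hochberg adjustment over 16235 genes. These hold 99.9% of all counts. SE is the log2 fold change over the square root of F. CPM are counts per 1000000 of TMM-scaled library size. Ratios used log2 of the counts plus 0.5 and exact permutation over 462 splits. Member correlations used 100000 permutations within groups. Alternatives were RLE factors, total-count scaling, other count filters, DESeq2 1.42.0, leaving out each library, and the replicate block. The procedure was tested on simulated counts.

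Named genes were the members, Fundc2 and Phb, the 2 called genes with the smallest p in each direction per list, and the 3 most similar genes (mean CPM of at least 5) per called member; others are marked in the text. The counts for the PINK1 list omit 2 genes that are not reported here. Members and lists were chosen with earlier results of these data known. Each member had at least 383 counts in each library.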

Additional observations from a re-analysis of the deposited data

Results flagged for a closer look

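Among 18 groups of values (9 members in hypoxia and in control), 2 held a library that stood apart by Dixon's test, which by chance marks about 1 group in 20. In hypoxia 1, Bnip3l had 82.3 CPM, against 100 to 104 CPM in the other 4 hypoxia libraries; the gap was 0.84 of the group's range, above the critical 0.71. Bcl2l13 had 77.1 CPM in hypoxia 1, against 79.9 to 80.9 CPM in the other 4, a gap of 0.715 of the range. Both low values came from the same library.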

How the results depend on the processing

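Fam162a, Higd1a, Bcl2l13 and Fundc1 kept their call and direction under all 18 alternatives, and Higd2a and Pink1 were not called under any. Besides the settings named for it above, Bnip3 was called without the filter on low counts (log2 fold change 0.35, adjusted p = 0.00481). Leaving out 1 library at a time gave 1385 to 2081 genes higher and 1500 to 2042 lower, and 3 to 5 members higher and 1 lower; 5 were higher without hypoxia 1, when Bnip3 and Bnip3l were called too. The near-zero value of Phb2 ran from -0.038 to 0.016 and was above 0 without control 3 (0.002), control 5 (0.006) or hypoxia 2. The same omissions moved the ratio differences over -0.292 to -0.151 for Bnip3l to Bnip3 (adjusted p = 0.0476 without control 2), 0.343 to 0.474 for Higd1a to Higd2a, -0.162 to -0.106 for Fundc1 to Fundc2 and -0.072 to 0.009 for Phb2 to Phb, positive only without hypoxia 4. The share of calls that were higher was 44.2%, and 49.9% with RLE factors, 38.4% with total counts and 53.0% in DESeq2, without a change in direction for any called member. With the replicate number as a block (numbers 1 to 5), 1300 genes were higher and 1637 lower, and Bnip3 passed (0.35, adjusted p = 0.021). The numbers do not pair the samples by the labels: same-numbered libraries correlated at -0.088 to 0.304, and 2 of 5 hypoxia libraries correlated best with their own number. The cause of these shifts was not tested. The lowest count of a member in any library was 383, and the effect of depth was not tested.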
